A study of Mus musculus with 4 samples.

Results

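Serotonin is made from the amino acid tryptophan, and its route is covered here by 10 mouse genes out of the 27179 in the deposited count table, all 10 of which have a row. They were picked by their place in the pathway: the hydroxylase Tph1, the decarboxylase Ddc, the tetrahydrobiopterin cofactor enzymes Gch1, Pts, Spr and Qdpr, the vesicular transporters Slc18a1 and Slc18a2, the reuptake transporter Slc6a4 and the oxidase Maoa. The choice was made with diet results of these same libraries known, so the differences between diets are given as a description and the fitted p-values beside them support nothing by themselves.

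RNA was sequenced from group 2 innate lymphoid cells (ILC2s), tissue lymphocytes without antigen receptors that release type 2 cytokines. The sort was from colons of C57BL/6J animals that ate a high-fiber diet (2 mice) or a control diet (2 mice), with 1 mouse per library, and the question was how their transcripts differ between the diets. The sources used here do not give the kind of fiber, how long it was fed, the age and sex of the mice or how the ILC2s were gated. Library totals were 20253987 to 30406730 counts, and 12685 to 13399 genes had a count in a library. All 12 ILC2 marker genes examined, among them Gata3, Il1rl1 and Il5, had counts. Their summed level was 15402 CPM and 13083 CPM in high-fiber libraries 1 and 2, against 12775 CPM and 10927 CPM in control libraries 1 and 2. Il5 was the largest part of it, at 5889 and 3799 CPM in the high-fiber mice, against 3043 and 2559 CPM in the control mice. Of the 12, 3 lay higher in both high-fiber libraries, beside 18.5% of tested genes, and 1 lower, beside 19.6%. The sum is therefore no measure of the share of ILC2s. CPM are counts as a share of the library total, in the usual unit of that name, after scaling by TMM, a method that matches the libraries on the bulk of their genes. High-fiber library 2 stood apart from the other 3 on the first principal component.

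Tryptophan hydroxylase carries out the first and rate-limiting step, which needs tetrahydrobiopterin as a cofactor, and the decarboxylase then yields serotonin. Tph1 is the form of cells outside the nervous system, and Tph2 that of neurons. Vesicular transporters load the amine into secretory vesicles, the transporter of Slc6a4 takes it back into cells, and monoamine oxidase breaks it down. In the gut most serotonin is made by enterochromaffin cells of the epithelium, and in rodents mast cells make it too.

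The RefSeq sequences upstream of Tph1 and Slc18a2 are shown because these were the members whose 2 high-fiber libraries both lay above both control libraries. Tph1 (NCBI gene 21990) lies on the minus strand of chromosome 7 from 46644641 to 46672537 in GRCm38.p6, the assembly whose chromosomes are those of mm10, and has 2 start sites in this table. Slc18a2 (NCBI gene 214084) lies on the plus strand of chromosome 19 from 59260878 to 59296012 and has 1. Each line below holds the 250 bases before a start site, 5′ to 3′ on the strand of the gene, at chr7:46672538-46672787 for the outer Tph1 start, chr7:46667378-46667627 for the inner Tph1 start and chr19:59260628-59260877 for Slc18a2. Capitals mark matches, on either strand, to the motifs listed after the sequences.

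Tph1 outer start: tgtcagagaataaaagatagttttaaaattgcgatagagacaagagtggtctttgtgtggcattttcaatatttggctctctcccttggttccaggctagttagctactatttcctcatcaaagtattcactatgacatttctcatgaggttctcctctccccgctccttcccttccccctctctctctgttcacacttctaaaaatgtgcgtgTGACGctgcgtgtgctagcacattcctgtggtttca

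Tph1 inner start: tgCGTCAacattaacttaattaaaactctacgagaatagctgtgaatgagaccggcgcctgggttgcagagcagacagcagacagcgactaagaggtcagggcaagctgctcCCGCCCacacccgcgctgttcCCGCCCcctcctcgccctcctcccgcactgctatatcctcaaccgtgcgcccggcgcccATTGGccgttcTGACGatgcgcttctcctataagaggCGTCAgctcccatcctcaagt

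Slc18a2 start: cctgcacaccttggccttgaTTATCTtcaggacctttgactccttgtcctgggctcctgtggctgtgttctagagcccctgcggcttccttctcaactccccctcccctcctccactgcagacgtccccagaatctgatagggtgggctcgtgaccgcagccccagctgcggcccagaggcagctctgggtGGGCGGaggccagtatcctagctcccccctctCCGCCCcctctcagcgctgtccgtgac

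A set of 6 motifs was searched on both strands. The core of the cyclic AMP response element was searched as TGACG. For the binding site of AP-1 transcription factors the letters were TGANTCA. The CCAAT box was searched by the letters of its name. For the GC box, which binds Sp1, the letters were GGGCGG. Sites of GATA factors were searched as AGATAA. For the TATA box of core promoters the letters were TATAAA. The core element TGACG was found 1 time before the outer Tph1 start, and 3 times before the inner one, where its matches began 248, 47 and 21 bases before the start. The inner start also had 1 CCAAT match and 2 GC box matches. Slc18a2 had 1 GATA match and 2 GC box matches, and no TGACG. No match overlapped a match to another motif. Among 32851 promoter windows of the same length, 17.77% held TGACG, 33.85% CCAAT, 32.74% the GC box and 9.99% the GATA letters, while the AP-1 (6.75%) and TATA (12.37%) letters had no match in the 3 windows. A match describes letters in these windows and is not evidence of a bound site.

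Tph1 was the member with the largest difference in CPM between the diets, while by fitted log2 fold change the low-count Slc18a1 lay farther from 0. It had 28192 and 12208 counts in high-fiber libraries 1 and 2, against 2287 and 303 counts in control libraries 1 and 2. Scaled, its level was 977 and 599 CPM in the high-fiber mice, against 75.7 and 14.4 CPM in the control mice. Both high-fiber libraries lay above both control libraries, and the lower high-fiber library was 7.91 times the higher control library. The mice within a diet also differed: the higher control library was 5.25 times the lower one, while the high-fiber libraries differed 1.63 times. The mean was 788 ± 267 CPM in the high-fiber mice and 45.1 ± 43.3 CPM on the control diet (SD, n = 2 each). By level in CPM, Tph1 ranked 135 and 255 among all genes in high-fiber libraries 1 and 2, against 2635 and 6829 in control libraries 1 and 2.

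The fitted log2 fold change of Tph1, high-fiber over control, was 4.08 ± 0.67 (SE), with a 95% interval of 2.48 to 5.68. By p it ranked 21 among the 11841 genes tested, and 27 of the 8896 tested genes with a mean of at least 5 CPM had a larger positive log2 fold change. By the quasi-likelihood test of edgeR its adjusted p (Benjamini-Hochberg, over all tested genes) was 0.336, which is above the threshold of 0.05. DESeq2 called it higher (log2 fold change 4.14, DESeq2 adjusted p = 2.04e-09), and limma-voom did not (adjusted p = 0.350). The DESeq2 log2 fold change was 3.77 without high-fiber library 1 and 4.44 without high-fiber library 2. It was 5.79 without control library 1 and 3.40 without control library 2. Such fits leave 1 library in a diet and take the spread from the other diet alone, so their calls cannot show which libraries the result depends on.

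Serotonin synthesis also needs the decarboxylase Ddc, which turns 5-hydroxytryptophan into serotonin. Ddc had 0 counts in all 4 libraries. A count of 0 allows up to 3 counts, or 0.104 and 0.147 CPM in high-fiber libraries 1 and 2 and 0.0993 and 0.143 CPM in control libraries 1 and 2. Slc6a4, the serotonin transporter of the cell membrane, also had 0 counts in all 4 libraries and the same limits. Of all genes listed, 43.2% had 0 counts in every library. These limits hold for counting error alone, because amplified copies are no independent molecules, and a transcript below them was not detectable at this depth.

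**Figure D1:**
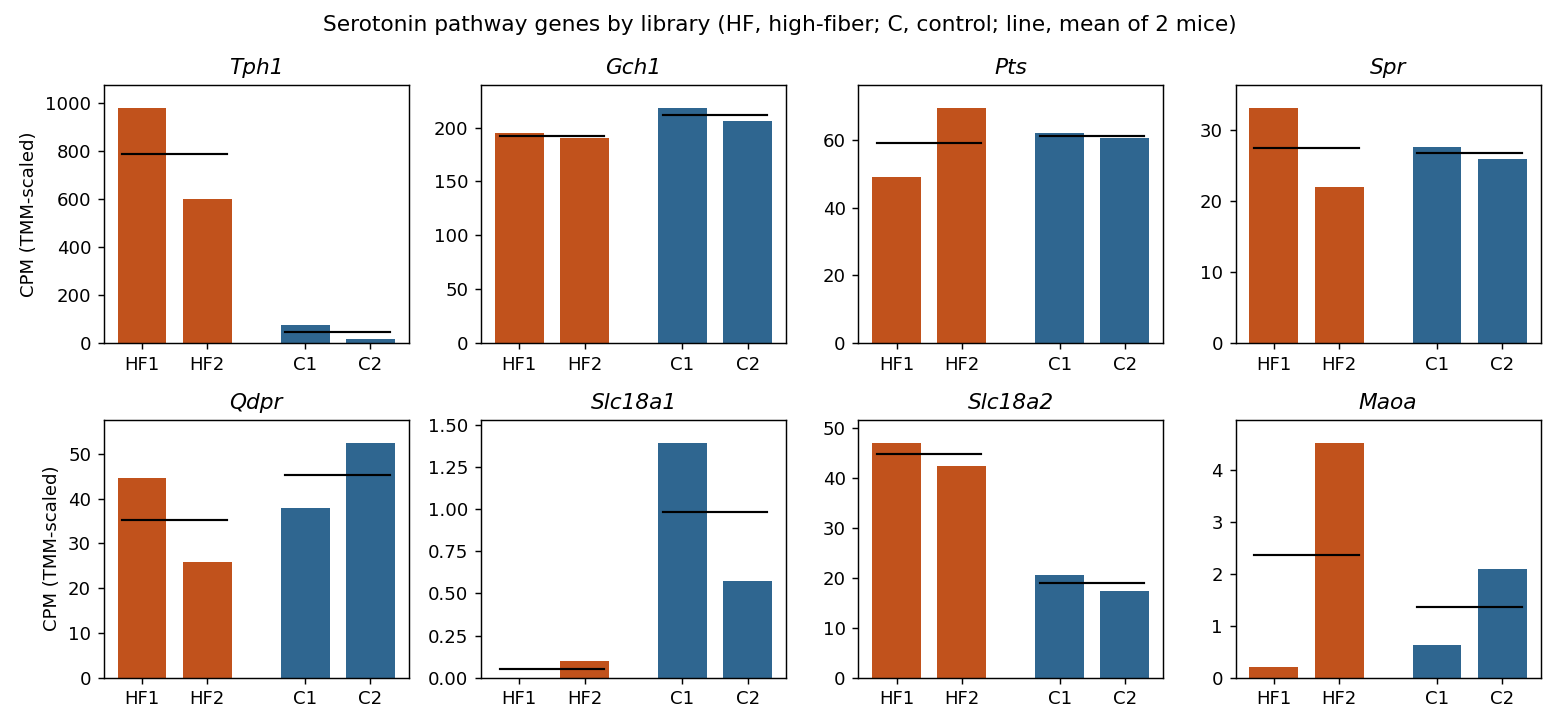
Level in CPM (vertical axes from 0, each gene on its own scale) of the 8 members that entered the test, with 1 bar per library and a line at the mean of each diet. Tph1 and Slc18a2 are higher in both high-fiber libraries (HF1, HF2) than in both control libraries (C1, C2), Slc18a1 and, by a small margin, Gch1 are lower, and the other 4 overlap.

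The fitted differences of the cofactor enzymes between the diets were small, and each 95% interval held 0. With 2 mice per diet, differences up to the ends of these intervals are not excluded. Gch1, GTP cyclohydrolase 1, starts tetrahydrobiopterin synthesis and controls its rate. It was at 195 and 191 CPM in libraries 1 and 2 of the high-fiber diet, against 218 and 206 CPM in control libraries 1 and 2. The high-fiber libraries were both lower, but by a small margin: the lower control library was 1.06 times the higher high-fiber library. Its log2 fold change was -0.14 ± 0.21 (SE), and the 95% interval of -0.64 to 0.36 leaves out differences as large as that of Tph1.

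Pts, 6-pyruvoyltetrahydropterin synthase, acts next in cofactor synthesis. It was at 49.1 and 69.5 CPM in libraries 1 and 2 of the high-fiber diet, and at 62.0 and 60.8 CPM in control libraries 1 and 2, so the control libraries lay between the high-fiber ones (log2 fold change -0.062, 95% interval -0.77 to 0.64). Spr, sepiapterin reductase, completes the cofactor. It was at 33.0 and 21.9 CPM in the high-fiber mice, and at 27.5 and 25.9 CPM on the control diet, again with the control libraries in between (0.058, 95% interval -0.86 to 0.97). The signs of Pts and Spr turned without high-fiber library 1 (0.20 for Pts and -0.26 for Spr).

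Qdpr, quinoid dihydropteridine reductase, recycles the cofactor after the hydroxylase has used it. It was at 44.7 and 25.7 CPM in libraries 1 and 2 of the high-fiber diet, against 37.9 and 52.4 CPM in control libraries 1 and 2. The libraries overlapped, and the spread within each diet (1.74 times on the high-fiber and 1.38 times on the control diet) exceeded the difference of the means (log2 fold change -0.32, 95% interval -1.25 to 0.60).

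Of the vesicular transporters, Slc18a2 (VMAT2) was the more abundant in these cells. It had 1358 and 866 counts in high-fiber libraries 1 and 2, against 622 and 366 counts in control libraries 1 and 2. In scaled level it was at 47.0 and 42.5 CPM in the high-fiber mice and at 20.6 and 17.4 CPM on the control diet. The groups did not overlap, and the lower high-fiber library was 2.06 times the higher control library, while libraries within a diet differed by at most 1.18 times. The log2 fold change was 1.23 ± 0.34 (SE, 95% interval 0.41 to 2.05), with an adjusted p of 0.447 in edgeR's test and 0.0785 in DESeq2, so neither called it.

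Slc18a1 (VMAT1), the form known from endocrine cells, had 0 and 2 counts in high-fiber libraries 1 and 2, against 42 and 12 counts in control libraries 1 and 2. The pooled high-fiber level was 0.0385 times the control level, with a 95% counting interval of 0.00455 to 0.146 that leaves out the spread between mice. Slc18a1 entered the test only through its control libraries, and its fitted log2 fold change of -4.53 ± 1.62 (adjusted p = 0.498) rests on these few counts. It ran from -7.82 without high-fiber library 2 to -3.33 without high-fiber library 1 by edgeR. Of all vesicular transporter counts, Slc18a1 made up 0% and 0.230% in high-fiber libraries 1 and 2, against 6.33% and 3.17% in control libraries 1 and 2. Exact (Clopper-Pearson) 95% intervals reached up to 0.271% and 0.830% in the high-fiber libraries and began at 4.60% and 1.65% in the control libraries. They cover counting error only, and the share also depends on Slc18a2, which was itself higher in both high-fiber libraries. The annotated span of Slc18a1 overlaps that of Atp6v1b2, a proton pump subunit gene at 126 to 137 CPM. How the authors assigned reads in an overlap could not be read from the sources used here, and the Slc18a1 values are uncertain.

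Maoa, the oxidase that prefers serotonin, was low and varied widely within each diet. It had 6 and 92 counts in high-fiber libraries 1 and 2, against 19 and 44 counts in control libraries 1 and 2. In CPM these were 0.208 and 4.51 on the high-fiber diet and 0.629 and 2.10 on the control diet, so both control libraries lay between the high-fiber ones. The log2 fold change of 0.71 ± 1.32 (SE) has a 95% interval of -2.42 to 3.84, and its sign turned without control library 1 (-0.031), without high-fiber library 2 (-2.55) and with limma-voom (-0.41).

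**Figure D2:**
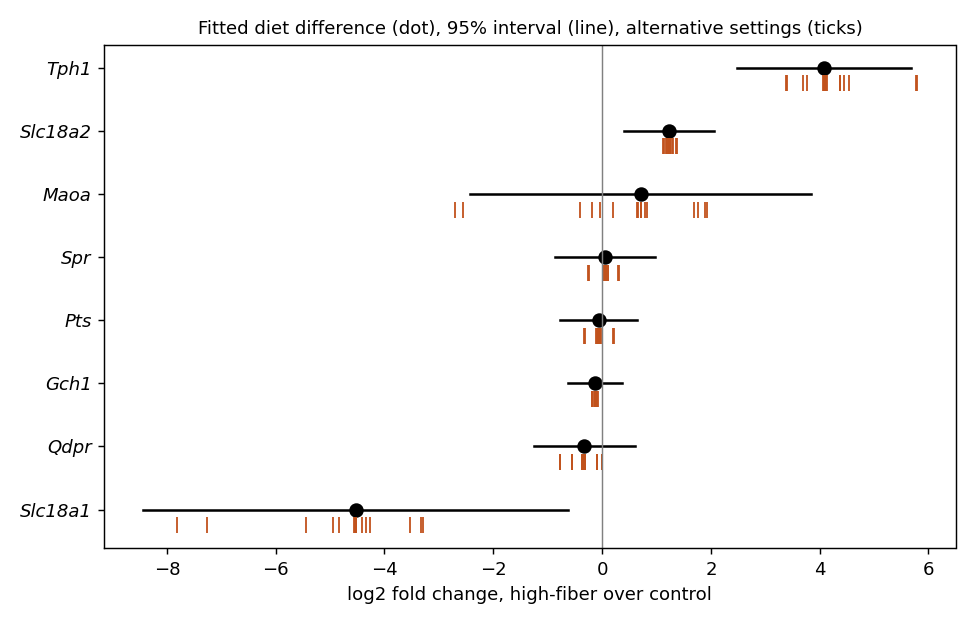
Fitted log2 fold change of each tested member, high-fiber over control (dots), with its 95% interval (lines) and the values under alternative scaling, filters, tools and left-out libraries (ticks). Tph1 (4.08) and Slc18a2 (1.23) stay above 0 under each setting shown, Slc18a1 (-4.53), Gch1 and Qdpr stay below 0, and Maoa, Pts and Spr take both signs.

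Of the 10 members, 8 passed the filter on low counts, and Ddc and Slc6a4 did not. By edgeR's test 0 of the 8 passed an adjusted p under 0.05 in either direction, beside 0.0338% of all tested genes (4 genes, all higher). At an unadjusted p under 0.05, 2 members were higher (Tph1 and Slc18a2), beside 4.7% of tested genes, and 1 was lower (Slc18a1), beside 4.1%. Slc18a1 entered the test only through its control libraries, and its unadjusted p was 0.146 with DESeq2 and 0.161 with limma-voom. DESeq2 called 1 member, Tph1, higher, beside 1.21% of the genes it tested, and 0 members lower, beside 0.607%. Limma-voom called 0. The diets did not overlap for 2 members with high-fiber above control, beside 18.5% of tested genes, and for 2 with high-fiber below control (Gch1 and Slc18a1), beside 19.6%. The median log2 fold change of the 8 was -0.0016, beside -0.016 for all tested genes.

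Levels of different genes were compared per kilobase of exon (CPM per kb), with the exon length merged over GENCODE M21 transcripts. On this scale Tph1 ranked first of the members in both high-fiber libraries, at 205 and 126 CPM per kb, against ranks of 5 and 6 in the control libraries, at 15.9 and 3.04 CPM per kb. In both control libraries Gch1 ranked first, at 78.5 and 74.3 CPM per kb, and Pts followed at 52.3 and 51.3 CPM per kb. On the high-fiber diet Gch1 (70.2 and 68.7 CPM per kb) and Pts (41.4 and 58.6 CPM per kb) came next, in that order, with no overlap between them. Spr and Qdpr exchanged places between the high-fiber libraries, at 26.8 and 17.8 CPM per kb for Spr and 28.3 and 16.3 CPM per kb for Qdpr, and so do not differ beyond their spread there. Slc18a2 followed at 12.4 and 11.2 CPM per kb on the high-fiber diet and at 5.44 and 4.61 CPM per kb on the control diet, and in the control libraries its values lay within the range of Tph1. Maoa and Slc18a1 were at or below 1.08 CPM per kb in every library.

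**Figure D3:**
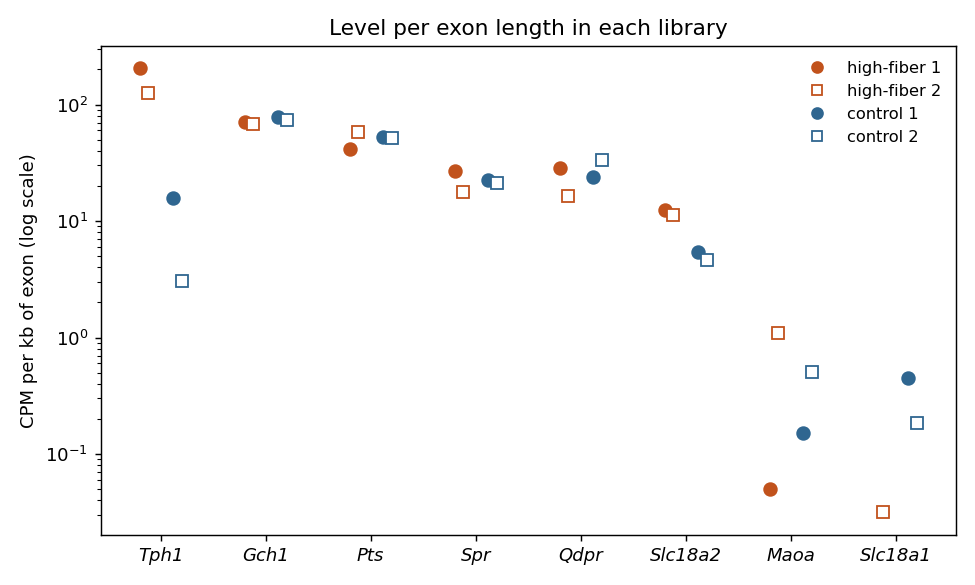
CPM per kb of exon (log axis) of the 8 tested members in each library, with high-fiber libraries on the left of each gene and control libraries on the right. Tph1 is the highest gene in both high-fiber libraries and lies at 15.9 and 3.04 CPM per kb in the control libraries; Slc18a1 had 0 counts in high-fiber library 1, which a log axis cannot show.

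Ratios of counts within a library need no scaling between libraries. Tph1 had 5.01 and 3.14 counts for each Gch1 count in high-fiber libraries 1 and 2, against 0.348 and 0.0701 in control libraries 1 and 2. Hydroxylase transcripts thus outnumbered those of the first cofactor enzyme in the high-fiber libraries alone, also per exon length (2.92 and 1.84 in the high-fiber mice, against 0.203 and 0.0409 in the control mice). For Slc18a2 the same count ratio to Gch1 was 0.241 and 0.223 on the high-fiber diet and 0.0945 and 0.0846 on the control diet. The ratio of Tph1 to Slc18a2 counts was 20.8 and 14.1 on the high-fiber diet, against 3.68 and 0.828 on the control diet, so the 2 genes were not in a fixed ratio.

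The genes next to Tph1 on the chromosome did not share its pattern. Sergef, 1745 bases below it, was at 30.7 and 24.6 CPM in libraries 1 and 2 of the high-fiber diet, and at 33.9 and 24.3 CPM in control libraries 1 and 2. Saal1, 13571 bases above, was at 18.1 and 37.1 CPM in the high-fiber mice and at 14.3 and 27.6 CPM on the control diet, and both genes overlapped between diets. Pdzd8, which ends 72 bases from Slc18a2, was at 47.3 and 51.3 CPM in the high-fiber mice and at 39.1 and 24.2 CPM on the control diet, with no overlap (log2 fold change 0.61 ± 0.35, adjusted p = 0.705 by edgeR). Reads at such close gene ends could be shared if the counting did not use strand, which is not stated.

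Of 8897 genes with a mean of at least 5 CPM, the 5 whose profiles over the 4 libraries lay nearest to that of Tph1 were Penk, Maged1, Kmo, Palld and Grp. Likeness was the root mean square distance between log2(CPM + 0.5) values, each centred over the 4 libraries. Penk, which encodes proenkephalin, was nearest at 0.149, with 313 and 211 CPM in the high-fiber mice and 19.8 and 4.34 CPM on the control diet. Maged1 followed at 0.289, Kmo at 0.374, the actin-binding protein gene Palld at 0.408 and Grp, which encodes gastrin-releasing peptide, at 0.417. Like Tph1, all 5 were lowest in control library 2, which follows largely from their choice by likeness to Tph1. With 4 libraries such a ranking only describes these samples.

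**Figure D4:**
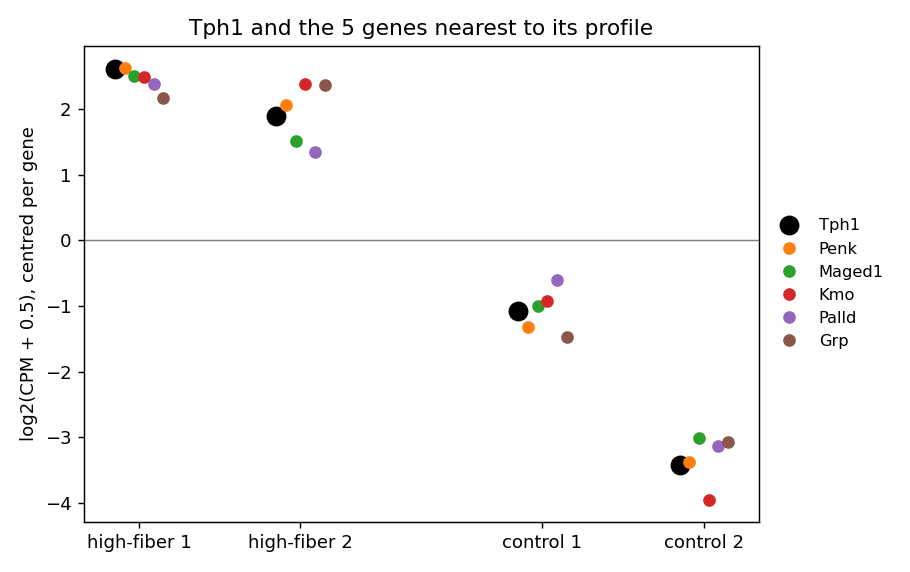
Profiles of Tph1 (black) and of the 5 nearest genes over the 4 libraries, as log2(CPM + 0.5) centred on each gene's mean. Each gene is above its mean in both high-fiber libraries, below it in both control libraries and lowest in control library 2. The 5 genes were chosen for their likeness to Tph1.

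Kmo, kynurenine 3-monooxygenase, also belongs to tryptophan metabolism, on the kynurenine route that competes with serotonin synthesis for the amino acid. It had 1363 and 898 counts in high-fiber libraries 1 and 2, against 121 and 1 counts in control libraries 1 and 2, or 47.2 and 44.1 CPM in the high-fiber mice, against 4.01 and 0.0476 CPM in the control mice. The lower high-fiber library was 11.0 times the higher control library, but the control libraries differed widely from each other. Its log2 fold change was 4.28 ± 0.69 (adjusted p = 0.336 by edgeR, DESeq2 adjusted p = 0.00751). The enzymes that open the route, Ido1, Ido2 and Tdo2, had 0 counts in all 4 libraries.

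The kynurenine list held 12 genes, of which 6 had 0 counts everywhere and 6 were tested. Of these 6, 0 passed edgeR's adjusted threshold, beside 0.0338% of tested genes. Taking an unadjusted p under 0.05, 1 (Kmo) was higher, beside 4.7% of tested genes, and 0 were lower, beside 4.1%. Kmo alone was called by DESeq2, which called 1.21% of its genes higher and 0.607% lower. Afmid, which releases kynurenine, was at 12.6 and 3.44 CPM in the high-fiber mice and at 18.5 and 11.5 CPM on the control diet, and the aminotransferase gene Kyat3 at 6.17 and 4.37 CPM in the high-fiber mice, against 8.24 and 2.67 CPM in the control mice. Kyat1, its relative, had 0 CPM and 6.87 CPM in high-fiber libraries 1 and 2, against 7.98 and 8.48 CPM in control libraries 1 and 2. The list median was -0.48, beside -0.016 for all tested genes.

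Tryptophan enters cells through Slc7a5 paired with Slc3a2, and is charged onto its tRNA by Wars in the cytosol and Wars2 in mitochondria. Of 8 genes of uptake and charging 6 were tested. By edgeR's adjusted threshold 0 passed, beside 0.0338% of tested genes. DESeq2 called 0, beside 1.21% of its genes higher and 0.607% lower. An unadjusted p under 0.05 was reached by 0 in the higher and 1 in the lower direction, beside 4.7% and 4.1% of tested genes. The list median was -0.18, beside -0.016 for all tested genes. Slc7a5 was at 50.9 and 2.65 CPM in the high-fiber mice, against 39.0 and 26.4 CPM in the control mice, so the control libraries lay between the high-fiber ones. Slc3a2 was at 1433 and 1179 CPM in the high-fiber mice and at 1575 and 1294 CPM on the control diet, and the transporter Slc7a8 at 372 and 118 CPM in the high-fiber mice, against 239 and 181 CPM in the control mice, both with overlap. Wars was at 58.6 and 28.5 CPM in the high-fiber mice, against 35.4 and 59.7 CPM in the control mice. Wars2 was the lower gene, with 112 and 16 counts in high-fiber libraries 1 and 2, against 608 and 151 in control libraries 1 and 2 (log2 fold change -2.48 ± 0.89, adjusted p = 0.498 by edgeR).

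Of 12 further genes of tetrahydrobiopterin use and recycling, 7 had 0 counts in all libraries, among them the amino acid hydroxylase genes Tph2 and Th, and Gchfr, which encodes a feedback regulator of Gch1. The 4 tested genes had 0 calls by edgeR's adjusted threshold, beside 0.0338% of tested genes. DESeq2 called 0, beside 1.21% of its genes higher and 0.607% lower. An unadjusted p under 0.05 was reached by 0, beside 4.7% of tested genes higher and 4.1% lower, so 0 of 4 does not set the list apart. The list median was -0.086, beside -0.016 for all tested genes. Pcbd2, a dehydratase of the recycling step, was at 27.3 and 54.9 CPM in the high-fiber mice and at 34.7 and 38.0 CPM on the control diet. Nos3, a nitric oxide synthase that uses the cofactor, was at 2.56 and 6.58 CPM in the high-fiber mice, against 2.68 and 4.24 CPM in the control mice. Cbr1, a carbonyl reductase, was at 32.0 and 19.8 CPM in the high-fiber mice and at 32.6 and 33.4 CPM on the control diet.

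Among 20 genes of other amine uptake, breakdown and conversion, 10 had 0 counts in all libraries, including the low-affinity amine uptake genes Slc22a3 and Slc29a4 and the melatonin enzyme gene Aanat. Of 7 tested, 0 passed edgeR's adjusted threshold, beside 0.0338% of tested genes. DESeq2 called 0, beside 1.21% of its genes higher and 0.607% lower. An unadjusted p under 0.05 was reached by 0, beside 4.7% of tested genes higher and 4.1% lower, so 0 of 7 does not set the list apart. The list median was 0.72, beside -0.016 for all tested genes. Aldh9a1, an aldehyde dehydrogenase that acts on amine-derived aldehydes, was at 115 and 85.6 CPM in the high-fiber mice, against 141 and 124 CPM in the control mice. Tgm2, the transglutaminase that can couple serotonin to proteins, was at 32.7 and 14.7 CPM in the high-fiber mice, against 19.4 and 9.05 CPM in the control mice. Hdc, which makes histamine, was at 77.8 and 61.7 CPM in the high-fiber mice and at 68.1 and 70.7 CPM on the control diet. Its log2 fold change was 0.013 ± 0.27, and its libraries overlapped between diets, where those of Tph1 did not.

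Serotonin receptor genes were scarce. Of 14, 10 had 0 counts in all libraries and 3 were tested. By edgeR's adjusted threshold 0 passed, beside 0.0338% of tested genes. DESeq2 called 0, beside 1.21% of its genes higher and 0.607% lower. An unadjusted p under 0.05 was reached by 0 in the higher and 1 in the lower direction, beside the same 4.7% and 4.1%. The list median was -0.97, beside -0.016 for all tested genes. The lower gene was Htr2a, which entered the test only through its control libraries, with 3 and 3 counts in high-fiber libraries 1 and 2, against 75 and 42 counts in control libraries 1 and 2. Its pooled level on the high-fiber diet was 0.0533 times that on the control diet, with a 95% counting interval of 0.0192 to 0.120 that leaves out the spread between mice (adjusted p = 0.447 by edgeR). Htr1b was at 2.11 and 0.344 CPM in the high-fiber mice and at 1.66 and 4.10 CPM on the control diet. Htr2b had 0 and 20 counts in high-fiber libraries 1 and 2, against 0 and 17 in control libraries 1 and 2.

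**Figure D5:**
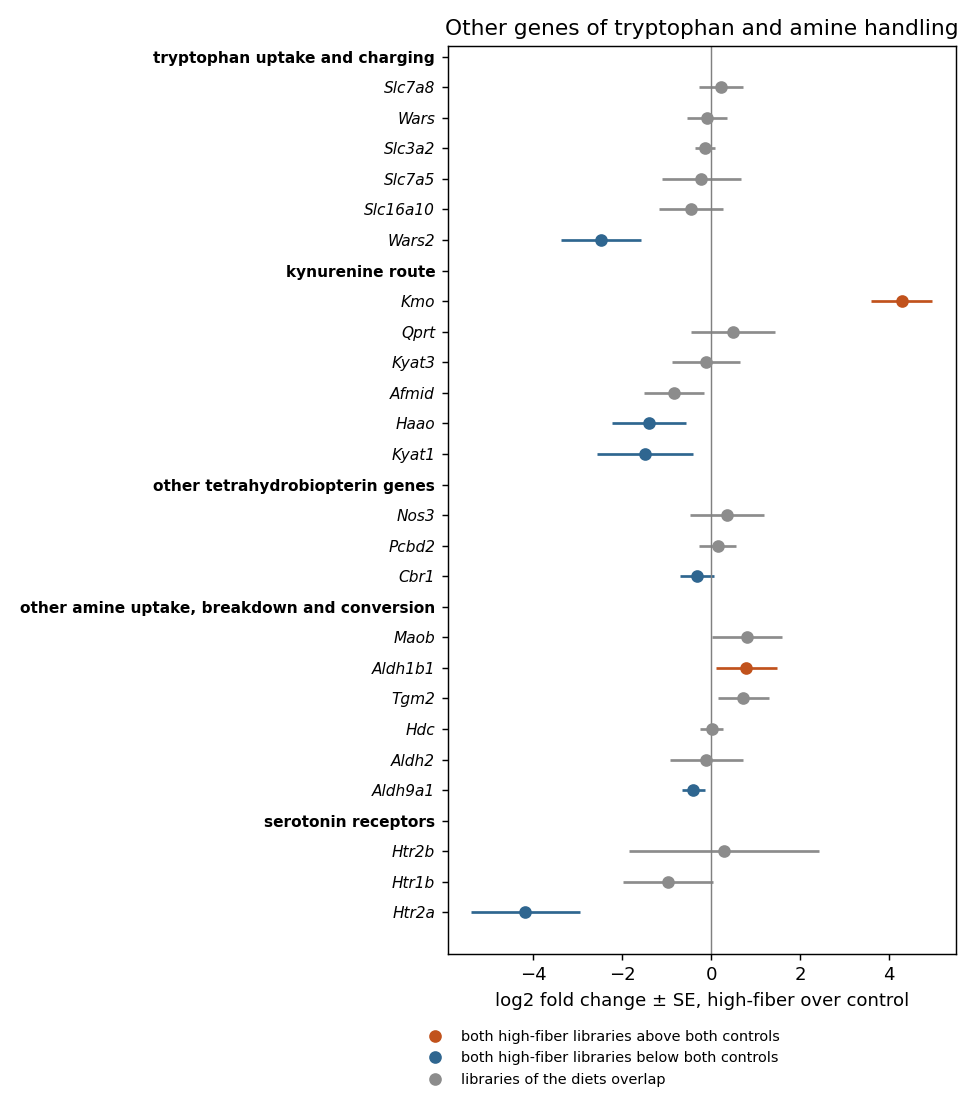
Log2 fold change ± SE, high-fiber over control, of tested genes of the 5 related lists, coloured by whether the libraries of the diets overlap. Kmo (4.28) and Htr2a (-4.17) lie farthest from 0. By edgeR 0 of the genes shown passed an adjusted p under 0.05, beside 0.0338% of all tested genes.

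Markers of enterochromaffin cells were at or near 0, and of the mast cell and basophil markers Hdc alone was well above 0. Of 11 enterochromaffin and enteroendocrine markers, 10 had 0 counts in all 4 libraries, including Chga, Chgb and Tac1, and the other, Reg4, had 5 counts in control library 2 alone. Of 12 mast cell and basophil markers, 8 had 0 counts in all libraries, including the mast cell proteases Mcpt1, Mcpt2, Mcpt4 and Cma1. Cpa3, a mast cell protease, had 0 counts in both high-fiber libraries, against 40 and 21 counts in control libraries 1 and 2. Hdc held nearly all of the list's summed level, which was 78.9 and 61.7 CPM in the high-fiber mice and 70.6 and 72.7 CPM in the control mice. Without Hdc the sum was 1.11 and 0 CPM in the high-fiber mice and 2.45 and 2.00 CPM on the control diet. The part of these cells in the Tph1 difference was not tested.

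Of the markers of other cells, those of B and plasma cells summed higher in both high-fiber libraries, and the T cell markers did not share a direction. B and plasma cell markers, 6 of 6 with counts, summed to 302 and 1169 CPM in high-fiber libraries 1 and 2, against 132 and 11.6 CPM in control libraries 1 and 2, with Igkc, Igha and Jchain the largest. Of the 6, 4 lay higher in both high-fiber libraries, beside 18.5% of tested genes, and 1, Ms4a1, at under 0.1 CPM, lay lower, beside 19.6%. Ms4a1 did not pass the filter on low counts, so the latter share does not cover it. T cell markers summed to 252 and 309 CPM in the high-fiber mice and 168 and 197 CPM on the control diet, nearly all from Cd3g. Of the other 6 T cell markers, Cd8a and Cd5 were at 0 in all libraries, and Cd3e was lower in both high-fiber libraries (1.21 and 5.30 CPM) than in both control libraries (5.79 and 13.2 CPM). Cd3d, Trac and Cd4 overlapped between the diets. The fitted log2 fold change was 0.77 for Cd3g, against -0.52 for Cd3d, -1.62 for Cd3e and -0.85 for Trac. The part of B, plasma and T cells in the Tph1 and Slc18a2 differences was not tested.

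The summed levels of the remaining lists of other cells overlapped between diets. Of single genes at low level, 2 of the neuron and glia list, Uchl1 and Tubb3, lay higher in both high-fiber libraries, beside 18.5% of tested genes. From the macrophage, monocyte and dendritic cell list 1, Mrc1, lay lower, beside 19.6%. Tubb3 and Mrc1 did not pass the filter on low counts, so these shares do not cover them. Macrophage, monocyte and dendritic cell markers (9 of 10 with counts) summed to 127 and 176 CPM in the high-fiber mice, against 60.4 and 141 CPM on the control diet. Epithelial markers (3 of 10 with counts, Krt8, Vil1 and Cdh1 at 0) summed to 27.1 and 37.3 CPM in the high-fiber mice, against 25.1 and 27.3 CPM in the control mice, mostly from Epcam. Platelet markers (4 of 7 with counts) summed to 1.35 and 7.07 CPM in the high-fiber mice, against 5.20 and 12.3 CPM in the control mice, and enteric neuron and glia markers (7 of 9 with counts) to 53.2 and 68.3 CPM in the high-fiber mice, against 56.1 and 24.1 CPM in the control mice, mostly from Ret. In bulk samples a change in the share of cells that hold a transcript and a change in its level per cell cannot be told apart.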

How the data were processed

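The authors deposited raw, unscaled counts of reads for 27179 NCBI gene identifiers in 4 libraries, and 0 value columns lacked a sample. CASAVA 1.8.2, STAR 2.3.0 and the mm10 build are named, without roles, in the submitters' processing notes. Libraries were made with a SMARTer ultra-low-input kit, per the labels' protocols. How reads were counted, and with which strand setting, is not given in the sources used here.

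The counts were fitted with edgeR 4.0.16 under R 4.3.3 (filterByExpr, TMM, estimateDisp, glmQLFit with legacy=FALSE, glmQLFTest, Benjamini-Hochberg at 0.05) over 11841 genes, with diet as the only term, 2 residual degrees of freedom and a common biological coefficient of variation of 0.607. Symbols and positions came from RefSeq GRCm38.p6 (25275 identifiers matched), and exon lengths from GENCODE M21. All 10 members and all 160 list entries had a row. Promoter sequences came from RefSeq GRCm38.p6. A standard error is the absolute log2 fold change over the root of F. Exact intervals used SciPy 1.17.1. DESeq2 1.42.0 and limma-voom (limma 3.58.1) were alternatives, beside other scaling and filters, legacy=TRUE, robust fitting, a replicate block and each library left out.

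From each related list, members with an unadjusted p under 0.05 and then the most abundant were named, up to 4. Genes at 0 counts, the openers of a route, neighbours, Slc7a5 and markers were named after their values were seen. Members, lists and motifs were chosen with earlier results of these data known. Some genes of the related lists are counted in them but not reported by name here.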

Additional observations from a re-analysis of the deposited data

How the results depend on the processing

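With 2 mice per diet, 4 of 11841 genes passed edgeR's test and 0 of the 10 members. With all 4 libraries, the count of members was 0 under each edgeR and limma-voom alternative. It was 1 (Tph1) with DESeq2 and with DESeq2 and a replicate block. The count of all genes became 0 with no filter, limma-voom, legacy=TRUE and the replicate block, 9 when 5 CPM were asked of at least 2 libraries, 234 with DESeq2 and 255 with DESeq2 and the block. Without 1 library it ran from 0 to 1 with edgeR and with DESeq2 it was 146 without control library 1, 109 without control library 2, 756 without high-fiber library 1 (217 higher and 539 lower, against 156 higher and 78 lower with all libraries) and 191 without high-fiber library 2. DESeq2 without each library and with the block was added after seeing the data. The labels do not say that a number marks a shared litter, batch or day, so the numbers are not taken to pair the mice. The deviations of same-numbered libraries had a correlation of 0.0408 across genes, a single value that cannot exclude pairing. Under the block the log2 fold change of Tph1 was 4.38 with edgeR (adjusted p = 0.542) and 4.54 with DESeq2, which called it.

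Tph1 stayed between 3.38 and 5.79 and Slc18a2 between 1.12 and 1.38 over all settings. The highest Tph1 values came without control library 1 (5.77 with edgeR). With all 4 libraries its adjusted p with edgeR ran from 0.0873 to 0.556. Maoa turned to -0.41 with limma-voom, -0.031 without control library 1, -2.55 (edgeR) and -2.71 (DESeq2) without high-fiber library 2, and -0.19 with DESeq2 and the block. Without high-fiber library 1, Pts turned to 0.20 (edgeR) and 0.21 (DESeq2), and Spr to -0.26 and -0.25. Without 1 library Maoa ran from -2.55 to 1.89 with edgeR and from -2.71 to 1.93 with DESeq2, and over both tools Pts ran from -0.33 to 0.21 and Spr from -0.26 to 0.31. The causes of these turns were not tested. Slc18a1 ran from -7.82 to -3.29 over all settings. Slc18a1 and Maoa gave no value under the filter of 5 CPM, and Slc18a1 gave none with edgeR without control library 1.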
